A study of Mus musculus with 5 samples.

Results

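RXRα binding around the AP-1 transcription factor genes was read from the HT-ChIPmentation peaks of alveolar macrophages (AMs), which live in the airspaces of the lung. The 9 genes were *Fos*, *Fosb*, *Fosl1* and *Fosl2* of the FOS family, *Jun*, *Junb* and *Jund* of the JUN family, and *Atf3* and *Batf*, among 21840 protein-coding genes of the annotation. A peak was given to a gene where the transcription start site (TSS) of that gene was the nearest protein-coding TSS to the midpoint of the peak, so a peak is near a gene and is not shown to act on it. This rule assigned 119 peaks to the 9 genes: library WT A had 42 among its 4751 peaks, WT G had 76 among 9766, KO A had 1 among 83 and KO G had 0 among 208.

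Both genotypes carried floxed *Rxra* and *Rxrb* alleles. The 2 WT libraries came from CD11cCre- Rxrabfl/fl mice, which lack Cre, and the 2 KO libraries from CD11cCre+ Rxrabfl/fl mice, in which Cre is driven by the *Cd11c* promoter and is therefore also expected in other CD11c-expressing cells such as dendritic cells. These genotypes are those of the labels and of the study's results, whereas its methods name wild-type mice for this assay. Mice were 9 weeks old and untreated as far as the labels state, and AMs were washed from the airways (bronchoalveolar lavage) and purified by FACS. The antibody was against RXRα, so RXRβ binding was not measured, and the loss of the receptors cannot be checked in a peak list. The libraries of a genotype are labelled apart, but the labels do not say that they came from separate mice, and their spread may be technical. Of 8 marker genes of AMs, 7 had a region bound in both WT libraries, as did *Ms4a1* of 3 B cell markers and *Cx3cr1* of 3 monocyte markers. Over all protein-coding genes, 8.85% had such a region. None of 3 T cell, 3 neutrophil and 4 alveolar epithelial markers had such a region, although a peak near a gene does not measure its expression.

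AP-1 is a family of dimers built from leucine zipper proteins. JUN proteins pair with each other or with FOS, ATF and BATF proteins, and the dimers bind the site TGACTCA or TGAGTCA. Many of these genes are immediate early genes, induced within minutes by growth factors, stress and microbial products, and in macrophages AP-1 works beside PU.1 and C/EBP proteins at enhancers. RXRs are nuclear receptors that bind DNA as partners of other nuclear receptors, classically at 2 copies of AGGTCA in direct repeat, with 1 base between the copies for partners such as PPARγ (DR1) and 4 for partners such as LXRs (DR4).

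The sequences around the strongest binding are given first, since positions below refer to them. Each is the mm10 sequence from 50 bases before to 50 bases after a summit, on the plus strand, a summit being the base of highest signal in a peak. Capitals mark every match to the 7 motifs searched, listed with their letters below, and a sequence with no capitals held none of them. The first 3 come from the strongest region in WT A of *Fosb*, *Fos* and *Jun*, the members with the highest peaks in that library. For *Fosb* at −6.43 kb the window is chr7:19316566-19316666 at the WT G summit, with the single AGGTCA in capitals. For *Fos* at −17.3 kb it is chr12:85456910-85457010 at the WT A summit. For *Jun* at +3.49 kb it is chr4:95048667-95048767 at the WT A summit, because the WT G summit lies within the transcript of *Jun*. The main motif counts below use a single summit per region, for this *Jun* region that of WT G. They therefore do not always refer to the windows shown.
Fosb −6.43 kb: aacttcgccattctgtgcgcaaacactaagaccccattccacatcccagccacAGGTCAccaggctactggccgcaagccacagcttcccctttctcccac
Fos −17.3 kb: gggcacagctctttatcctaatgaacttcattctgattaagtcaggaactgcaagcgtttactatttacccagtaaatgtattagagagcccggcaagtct
Jun +3.49 kb: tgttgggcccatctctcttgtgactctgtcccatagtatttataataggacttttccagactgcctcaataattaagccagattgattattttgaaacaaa

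The next 2 windows, chr7:19301508-19301608 and chr7:19301563-19301663, overlap each other. They are centred on the KO A summit and on the WT G summit of the only region of the 9 genes that held a peak in a KO library, and neither held a searched motif.
Fosb +8.21 kb, KO A summit: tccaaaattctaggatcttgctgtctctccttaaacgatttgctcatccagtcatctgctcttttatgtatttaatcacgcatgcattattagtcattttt
Fosb +8.21 kb, WT G summit: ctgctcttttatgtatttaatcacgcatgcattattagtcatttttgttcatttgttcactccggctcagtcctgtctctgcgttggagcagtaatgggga

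The last 5 windows are shown for the motifs they held and were chosen after the matches were seen. For *Atf3* at −48.8 kb, chr1:191266925-191267025 at the WT A summit held the only DR1 match, on the minus strand, and chr1:191267013-191267113 at the WT G summit held AGGTCA and, on the minus strand, a PU.1 site. For *Fosb* at −11.3 kb, chr7:19321669-19321769 at the WT G summit held an AP-1 site and, on the minus strand, 2 C/EBP sites of the same letters. The *Jund* promoter held a C/EBP site on the minus strand at its WT A summit, chr8:70698806-70698906, and the cyclic AMP response element TGACGTCA (CRE) at its WT G summit, chr8:70698696-70698796.
Atf3 −48.8 kb, WT A summit: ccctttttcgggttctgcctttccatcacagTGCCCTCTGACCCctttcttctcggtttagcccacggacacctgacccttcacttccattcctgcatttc
Atf3 −48.8 kb, WT G summit: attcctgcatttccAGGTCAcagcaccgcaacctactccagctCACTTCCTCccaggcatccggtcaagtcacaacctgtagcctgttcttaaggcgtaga
Fosb −11.3 kb, WT G summit: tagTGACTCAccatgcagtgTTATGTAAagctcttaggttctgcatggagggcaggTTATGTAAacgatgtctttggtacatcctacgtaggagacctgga
Jund promoter, WT A summit: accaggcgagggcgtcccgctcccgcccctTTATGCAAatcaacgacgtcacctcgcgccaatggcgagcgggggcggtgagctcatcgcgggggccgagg
Jund promoter, WT G summit: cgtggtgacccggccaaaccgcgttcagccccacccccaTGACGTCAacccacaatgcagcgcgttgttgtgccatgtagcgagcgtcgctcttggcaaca

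The first comparison was of peak number between genotypes. *Fos* had 9 peaks in WT A, 20 in WT G and none in either KO library. *Fosb* had 9, 12, 1 and 0 in WT A, WT G, KO A and KO G, and *Atf3* had 6, 17, 0 and 0. In the same order, *Fosl2* had 7, 9, 0 and 0, *Jun* had 3, 6, 0 and 0, and *Junb* had 4, 5, 0 and 0. *Jund* had 2, 3, 0 and 0 and *Batf* had 2, 4, 0 and 0, while *Fosl1* had no peak in any library. All members but *Fosl1* thus had peaks in both WT libraries, and each of these 8 had more in WT G than in WT A. A peak of WT A was nearest to 10.4% of all protein-coding genes, and a peak of WT G to 16.6%. For KO A, where 1 of the 9 members had a peak, the share of all genes was 0.353%, and for KO G, where no member had one, it was 0.861%.

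**Figure D1:**
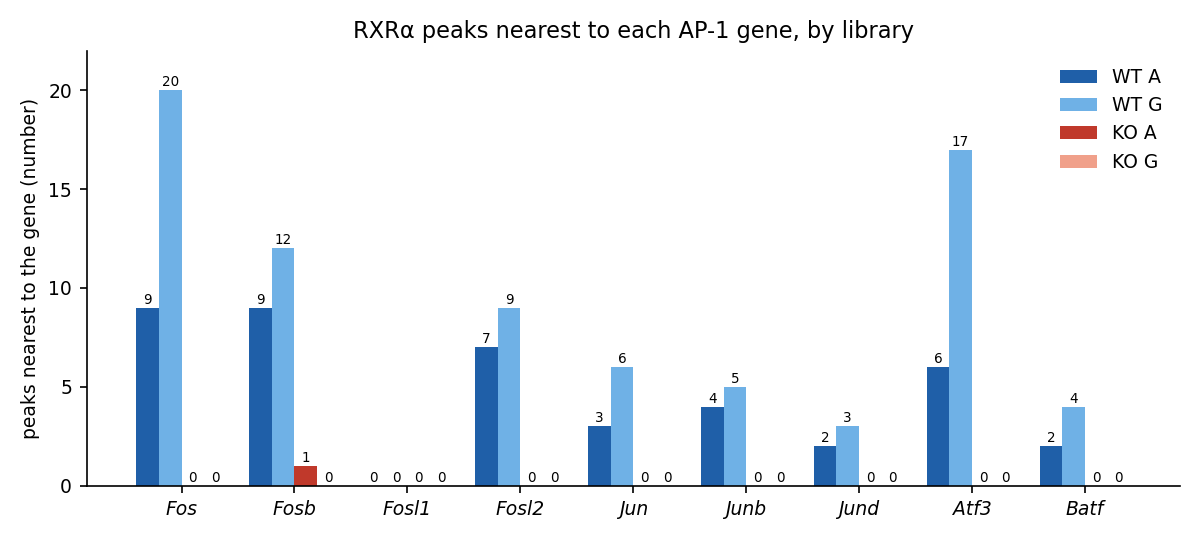
Bars give the number of RXRα peaks nearest to each AP-1 gene (vertical axis) in WT A, WT G, KO A and KO G. *Fos*, with 9 and 20 peaks in the WT libraries, and *Atf3*, with 6 and 17, show the widest gaps between WT A and WT G, and the single KO bar is the KO A peak of *Fosb*.

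Over the 9 genes, the WT libraries held 59.0 ± 24.0 peaks (SD, n = 2) and the KO libraries 0.5 ± 0.707 (SD, n = 2), a difference of 58.5 peaks. The size of the difference depended on the assignment: it was 34.5 peaks with the nearest TSS of any gene biotype and 99.5 with any peak within 100 kb of a member. Both WT values lay above both KO values, but 2 libraries against 2 cannot reach p = 0.05: an exact two-sided permutation test gave 0.333, its minimum in this design. The whole lists differed in the same way. As a share of its list, the 9 genes took 0.884% of the peaks of WT A (95% exact binomial interval 0.638–1.19), 0.778% of WT G (0.614–0.973), 1.2% of KO A (0.0305–6.53) and 0 of 208 peaks of KO G (0–1.76, or up to 1.44% if a count of 0 allows 3 counts). These 4 intervals overlap, so a fall at the AP-1 genes beyond that of the whole lists was not detectable with 83 and 208 KO peaks.

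Peaks of WT A and WT G that overlapped by at least 1 bp were merged into regions. Across the genome 3423 regions had a peak in both WT libraries, and 30 of them were nearest to an AP-1 gene. *Fos* and *Fosb* had 7 such regions each, *Atf3* had 5, *Fosl2* 4, *Junb* 3, *Batf* 2, and *Jun* and *Jund* 1 each. The 8 of 9 members with a region compare with 8.85% of all protein-coding genes. With TSSs of any gene biotype, 17 regions of 5 members were left, and *Jun*, *Atf3* and *Batf* had none, and with an overlap of at least 50% of both peaks 13 regions were left. At least 7 regions, as at *Fos* and *Fosb*, were found at 0.188% of all genes, at least 5, as at *Atf3*, at 0.408%, and at least 4, as at *Fosl2*, at 0.81%. At least 3, as at *Junb*, were found at 1.55% and at least 2, as at *Batf*, at 3.29%. The space in which a member TSS is the nearest differs widely, from 10.2 kb at *Junb* and 27.1 kb at *Fosb* to 112 kb at *Fos*, 267 kb at *Fosl2* and 289 kb at *Jun*. Per 100 kb of that space, *Junb* had 29.5 regions and *Fosb* 25.8, against 6.66 at *Jund*, 6.24 at *Fos*, 5.32 at *Atf3*, 2.73 at *Batf*, 1.5 at *Fosl2* and 0.346 at *Jun*. The order of the genes by region number therefore differs from their order by density.

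*Fos* (ENSMUSG00000021250.13, chr12:85473890-85477273, plus strand) encodes the FOS subunit and is the best known immediate early gene. All 9 of its WT A peaks overlapped a WT G peak, against 83.2% of all WT A peaks. Of its 20 WT G peaks, 8 overlapped a WT A peak, against 36.1% of all WT G peaks. Strength is given below as −log10 q, where q is the peak caller's p-value at the summit adjusted over the library, in the order WT A and WT G. It is comparable within a library only, because it rises with depth. Far upstream, at −17.3 kb (chr12:85456035-85457207), the region reached 17.6 and 16.0, with 29 and 18 fragments over the summit. A region at −4.91 kb (chr12:85468590-85469367) reached 13.5 and 18.8, and a region of 2758 bp that covers the end of the gene, at +4.26 kb (chr12:85476768-85479525), reached 14.7 and 17.3. All 3 of these ranked within the strongest 3% of WT G peaks, whereas the promoter itself was weaker. At the promoter (chr12:85473437-85474021) the peaks reached 5.22 and 10.5, and the WT A and WT G summits lay 217 bp apart. Within the introns, the region at +0.912 kb reached 10.2 and 3.61, in the strongest 19.8% of WT A and 67.6% of WT G, and that at +1.63 kb reached 3.43 and 6.88, in the strongest 87.5% and 23.5%. The order of these regions was thus reversed between the libraries.

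In WT G, 12 further *Fos* peaks had no WT A peak under them, and the same was true of 6239 of all 9766 WT G peaks. The strongest, at +23.6 kb in intergenic sequence, reached 13.7 with a fold enrichment of 10.4. Fold enrichment is the pileup of fragments at the summit over the local background, each with a pseudocount of 1.

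*Fosb* (ENSMUSG00000003545.3, chr7:19302696-19310051, minus strand) encodes a FOS protein that also exists as a long-lived splice form. Its upstream region at −6.43 kb (chr7:19315921-19317037) was the strongest of all 30, with 22.3 in WT A and 33.1 in WT G. Fold enrichment there was 12.4 and 18.1, and the summits held 32 and 30 fragments. The region ranked 123 of 4751 in WT A and 16 of 9766 in WT G, where it stood in the strongest 0.164% of the list. In both libraries no other region of the 9 genes ranked higher. A second upstream region at −11.3 kb (chr7:19320765-19321966), within an intron of the noncoding gene *D830036C21Rik*, reached 15.7 and 17.3. Between them, at −9.89 kb, the values were 3.52 and 9.64. The other 4 regions of *Fosb* lay around its 3′ end, from +5.37 kb to +8.21 kb, and that at +6.42 kb, in the last part of the transcript, reached 13.5 and 11.8. It was the strongest of the 4 in WT A, and the region at +8.21 kb was the strongest of them in WT G. The promoter had a peak in WT A alone, with a value of 7.14.

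The only KO peak of the 9 genes was at the 3′ side of *Fosb*. It was called in KO A at chr7:19301461-19301640, over 180 bp, with −log10 q 5.04, fold enrichment 6.61 and 12 fragments at its summit. The local background under it equalled the genome-wide background of KO A. The peak lay within the region at +8.21 kb (chr7:19300962-19301825), at the promoter of the noncoding gene *Gm26802*, where WT A reached 8.06 and WT G 15.9. KO G had no peak there. Thus 1 of the 30 regions held a KO peak, 3.33% (exact binomial interval 0.0844–17.2), against 5.87% of all 3423 regions, and this 1 region rests on KO A alone.

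The absence of KO peaks at the other regions was set against the fragments that the KO libraries would have held there. For each region the lower of its 2 WT fold enrichments was applied to the genome-wide background of each KO library, 0.966 fragments in KO A and 0.936 in KO G. KO A would then hold from 8.75 to 23.4 fragments at the 30 summits, and in 24 of them at least the 10 of its lowest called summit. For KO G the range was 8.6 to 23.0, and all 30 reached the 8 of its lowest called summit. These fragments were worked out for the 30 regions only, so they give no comparison with regions of other genes. At *Fosb* −6.43 kb the figures were 23.4 and 23.0 fragments, at *Fos* −17.3 kb 19.8 and 19.5, and at *Jun* +3.49 kb 17.0 and 16.8. The 6 regions that fell short in KO A were 3 of *Fos*, 2 of *Fosb* and 1 of *Atf3*. The regions were selected for being called in WT, and a value near the lowest called summit can miss it by counting error alone. Fold enrichment includes the pseudocount of 1 and so varies with depth, and values close to the lowest called summits depend on it. Outside these regions, the nearest KO G peak to any member TSS was 398 kb from *Fosl1*, so KO G had no peak within 100 kb of any of the 9 genes.

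**Figure D2:**
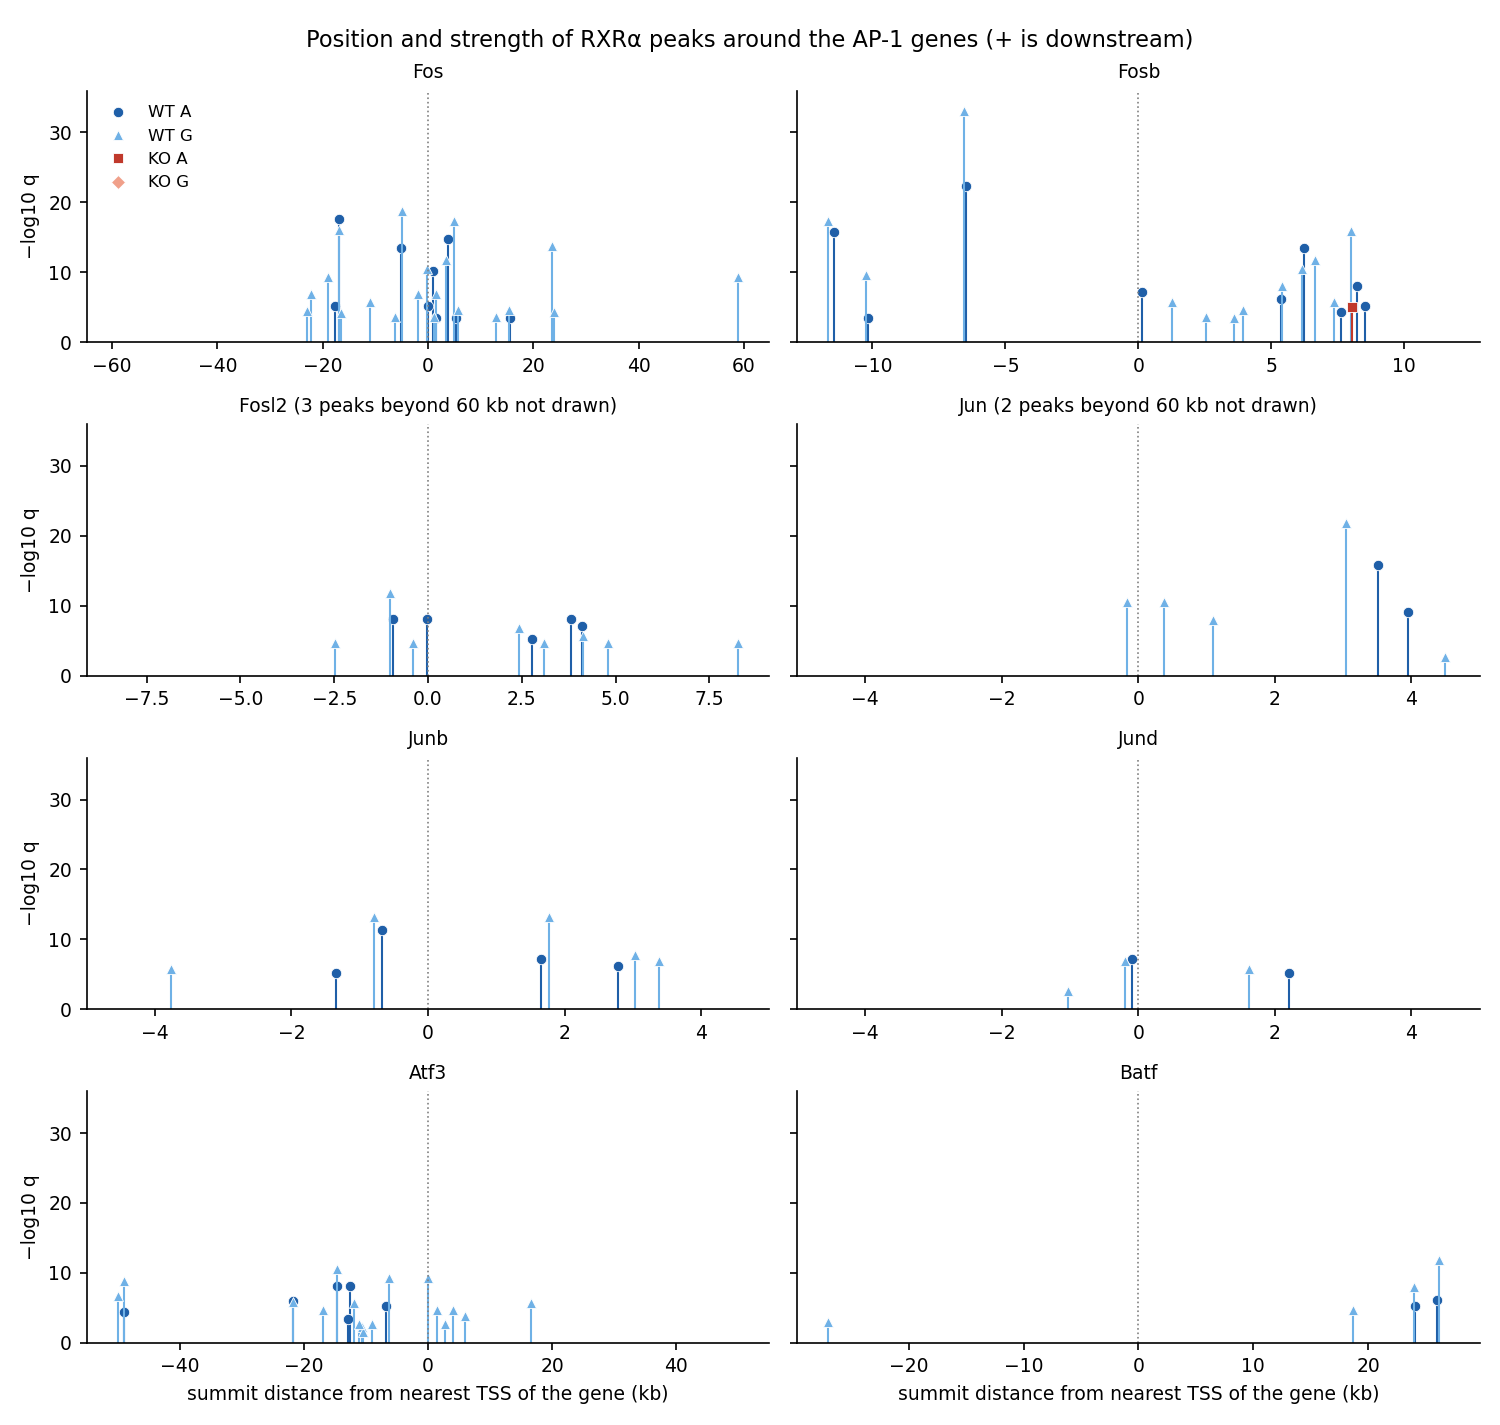
Each stem is a peak, placed by the distance of its summit from the nearest TSS of the gene in kb (positive is downstream) and raised to its −log10 q, for 8 AP-1 genes, with peaks beyond 60 kb left out and horizontal scales that differ between panels. The tallest stems are *Fosb* at −6.43 kb, with 22.3 in WT A and 33.1 in WT G, and the only KO stem is the KO A peak of *Fosb* at 5.04.

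*Fosl2* (ENSMUSG00000029135.10, chr5:32135801-32157842, plus strand) encodes FRA2, a FOS protein without the strong activation domain of FOS. Its 4 regions had middling strength. The strongest, at −1.04 kb, reached 8.06 in WT A and 11.8 in WT G, and those at +2.57 kb and +4.27 kb, in an intron, reached 5.22 and 6.88, and 7.12 and 5.73. The most distant region of all the members, at −151 kb in an intron of the neighbouring gene *Babam2* (chr5:31984139-31984629), reached 7.14 and 6.88. Next to the TSS the libraries had peaks that did not overlap, at −0.035 kb in WT A (8.06) and at −0.482 kb in WT G (4.64). *Fosl1* (ENSMUSG00000024912.6, chr19:5447547-5455946, plus strand), which encodes FRA1, was the member without a peak. The nearest peak of WT G was 42.8 kb away with a value of 4.64 and nearest to *Cfl1*.

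*Jun* (ENSMUSG00000052684.4, chr4:95049034-95052222, minus strand) encodes c-JUN, the partner common to most AP-1 dimers. It had a single region in both WT libraries, which was strong and broad. This region, at +3.49 kb (chr4:95047502-95049955), spanned 2454 bp from the end of *Jun* to the promoter of the noncoding gene *Gm12703*, and reached 15.8 in WT A and 21.8 in WT G. It ranked 303 and 95 in the lists, with 30 and 21 fragments, and its summits were 465 bp apart. Within it, a WT A peak (chr4:95048453-95049867) also covered the last part of the transcript of *Jun*. Outside this region, the promoter and body of *Jun* had peaks in WT G alone, at −0.152, +0.362 and +1.07 kb, with values of 10.5, 10.5 and 8.04.

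*Junb* (ENSMUSG00000052837.6, chr8:84974484-84978718, minus strand) encodes a JUN protein that activates less strongly than c-JUN and in many settings opposes it. Its promoter region (chr8:84978363-84980277, 1915 bp) reached 11.3 in WT A and 13.2 in WT G, the highest of the 3 regions at a member's own promoter. In the coding exon, at +1.3 kb, the values were 7.14 and 13.2, and at +2.65 kb, at the end of the gene, they were 6.16 and 7.83. The 3 regions covered most of the gene, in the narrowest space of any member. *Jund* (ENSMUSG00000071076.6, chr8:70698949-70700616, plus strand), a JUN gene expressed steadily in most cells, was bound at its promoter (chr8:70698619-70698967) with 7.14 and 6.88. A further WT A peak at +2.21 kb overlapped a WT G peak, but their merged region was nearest to *Iqcn* and is not counted among the 30.

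*Atf3* (ENSMUSG00000026628.13, chr1:191170296-191218039, minus strand) encodes a stress-induced repressor that limits inflammatory genes in macrophages. It has 2 TSSs, and the 5 regions all lay upstream of the TSS nearest to them. The strongest in WT G, at −14.7 kb from the downstream TSS and within an intron (chr1:191197638-191198454), reached 8.06 in WT A and 10.5 in WT G. In WT A another region, at −12.4 kb from the upstream TSS, had the same value. From the upstream TSS, those at −6.63, −12.4, −21.8 and −48.8 kb reached 5.22 and 9.26, 8.06 and 5.7, 5.92 and 5.88, and 4.39 and 8.85. No *Atf3* region thus approached the strongest of *Fos*, *Fosb* and *Jun*. The downstream promoter had a WT G peak of 1273 bp with a value of 9.26 and no WT A peak, and the upstream promoter had none. *Batf* (ENSMUSG00000034266.6, chr12:85686669-85709087, plus strand), whose protein pairs with JUN and IRF proteins in immune cells, had no promoter peak. Its regions lay beyond the end of the gene, at +24.1 kb with 5.22 and 8.04 and at +26.1 kb with 6.16 and 11.8.

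**Figure D3:**
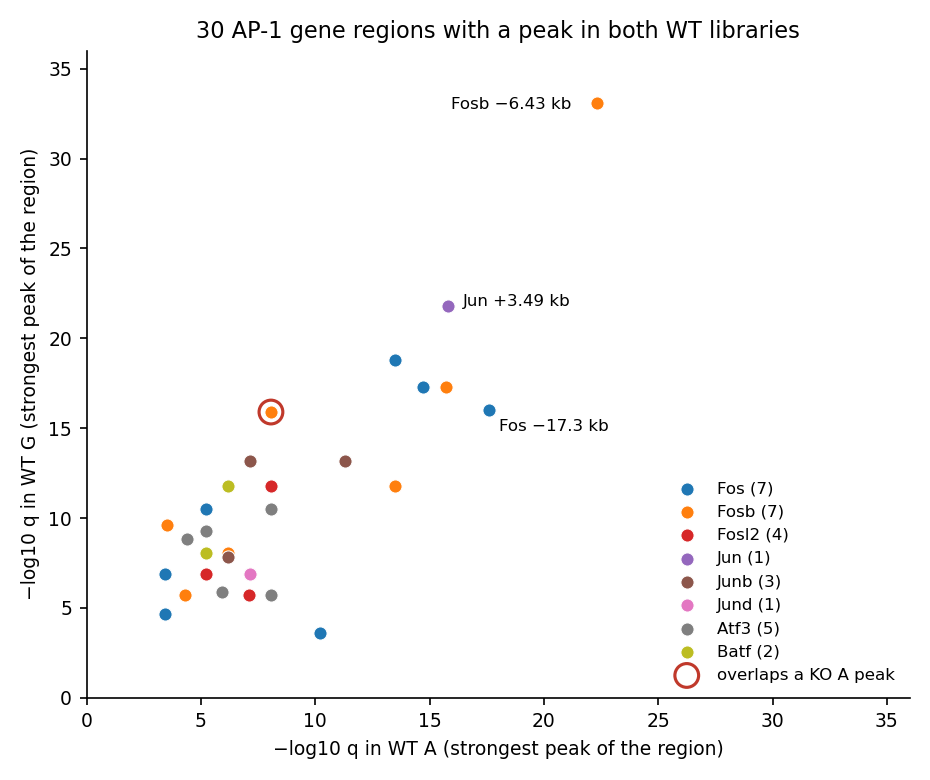
Each point is 1 of the 30 regions, placed by the −log10 q of its strongest peak in WT A (horizontal) and in WT G (vertical) and coloured by gene, with the number of regions in brackets; *Fosl2* −151 kb and the *Jund* promoter coincide at 7.14 and 6.88. The *Fosb*, *Fos* and *Jun* regions named lie farthest from the origin, and the ring marks the region with the KO A peak, at 8.06 and 15.9.

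Taking the 30 regions together, the strongest peak had a median −log10 q of 7.14 in WT A (range 3.43–22.3), against 8.06 over all 3423 regions, and of 9.45 in WT G (range 3.61–33.1), against 8.04. The median region of the AP-1 genes lay below that of all regions in WT A and above it in WT G. In WT A 5 of the 30 ranked in the strongest 10% of the list and in WT G 14 did (16.7% and 46.7%), against 14.3% and 31.3% of all 3423 regions. The 5 did so in both libraries: *Fos* −17.3 and +4.26 kb, *Fosb* −6.43 and −11.3 kb, and *Jun* +3.49 kb. Among all member peaks the median fold enrichment was 6.69 in WT A and 6.45 in WT G, against 6.32 and 5.8 in the lists. The single member peaks with the fewest fragments had 12 in WT A and 6 in WT G. Member regions were wide, with a median of 792 bp against 574 bp, and 11 of them exceeded 1 kb. WT A and WT G summits lay a median of 123 bp apart within a region (range 43–1231), and 11 of the 30 lay within 100 bp of each other. This gap was not measured over all regions.

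Agreement between the WT libraries was then compared with that of the whole lists. Of the 42 WT A peaks of the AP-1 genes, 37 overlapped a WT G peak, 88.1% (74.4–96.0), against 83.2% of all WT A peaks. Of the 76 WT G peaks, 33 overlapped a WT A peak, 43.4% (32.1–55.3), against 36.1%. In both directions the share of the whole list lay within the interval of the members. With an overlap of at least 50% of both peaks, the shares were 31.0% in WT A and 17.1% in WT G, against 32.6% and 15.9% of the whole lists. With WT G shortened by −log10 q to the length of WT A, 61.2% of its member peaks were shared, against 57.5% of the list. In WT A the share of the list, 67.7%, then lay just below the interval of the members, 83.3% (68.6–93.0). These intervals treat peaks as independent, whereas peaks of a gene are neighbours, so no difference from the list is read from them. Shared member peaks of WT G were stronger than those found in WT G alone, with medians of 9.64 and 4.64, as in the whole list, with 7.83 and 4.64. In WT A, where 5 member peaks were found in that library alone, the medians ran the other way, 6.16 for the shared and 8.06 for the single peaks, against 7.14 and 5.22 in the whole list. The 5 were 3 peaks of *Fosl2*, 1 of *Fosb* and 1 of *Jun*, with values from 4.31 to 8.06. Of the 43 in WT G alone, *Fos* and *Atf3* had 12 each, *Fosl2* 5, *Fosb* and *Jun* 4 each, and *Junb*, *Jund* and *Batf* 2 each.

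**Figure D4:**
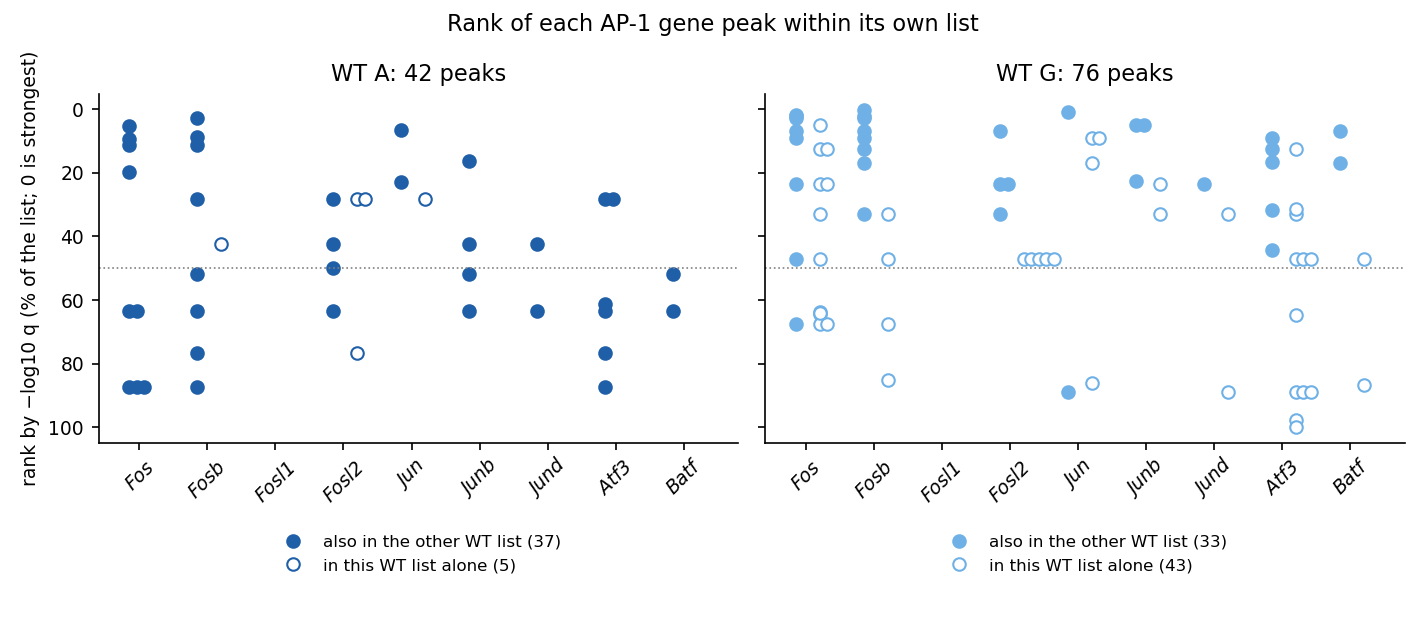
Every WT peak of the 9 genes is placed by its rank by −log10 q, as a percentage of its own list with the strongest at the top, in WT A (left, 42 peaks) and WT G (right, 76 peaks); filled circles overlap a peak of the other WT library and open circles do not, and circles of equal rank are set side by side. Filled circles fill the top of the WT G panel, with *Fosb* at 0.164%, while *Fosl2* has 5 open circles in a row at 47.0%.

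Regions of the AP-1 genes lay close to their TSSs. The median distance was 6.43 kb, against 15.7 kb over all regions, 13 of 30 (43.3%) lay within 5 kb, against 27.5%, and 25 of 30 (83.3%) within 20 kb, against 56.2%. They fell evenly, 15 upstream and 15 downstream. The distances are limited by the space in which a member TSS is the nearest, only 10.2 kb at *Junb* and 27.1 kb at *Fosb*. They were not adjusted for this space, so the shorter distances are not read as a property of the AP-1 genes. By annotation of the midpoint, 6 of the 30 regions (20%) were at a promoter, against 10.8% of all regions. Only those of *Fos*, *Junb* and *Jund* were at the member's own promoter. The promoters of noncoding genes held the other 3, namely *Gm26802*, *Gm12703* and *Gm37168*. The *Fosl2* region at −1.04 kb had its midpoint just outside the promoter of *Fosl2*, but its peaks in both WT libraries reached into that promoter. Gene ends held 5 (16.7%), against 3.45%, and introns held 7 (23.3%), against 50.8%. Exons held 3 (10%), against 3.42%, and intergenic sequence held 9 (30%), against 31.5%. These shares depend on gene length and were not adjusted for it. *Jund*, *Jun*, *Fos* and *Junb* are 1668, 3189, 3384 and 4235 bp long, while *Atf3* spans 47744 bp. No test was run on the shares, since regions of a gene are neighbours and not replicates.

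Motifs were then sought on both strands within 50 bp of 1 summit a region, that of the peak with the highest −log10 q in either WT library. DR1, AGGTCA repeated after 1 free base with at most 2 mismatches in all, was in none of the 30 windows, which allows a share of up to 10% (3 counts of 30), against 6.34% of all regions and 1.55% of windows 500 bp to each side of them. The windows to each side of the 30 member summits held it in 3.33%. No match says only that these letters were not in these windows. With the summits of WT A alone, 1 window held it, that of *Atf3* −48.8 kb. DR4, the same with 4 free bases, was in none, against 1.9%, and with WT A summits in that of *Atf3* −6.63 kb. A single AGGTCA, which is also part of any DR1 or DR4 match without mismatches, was in 3 (10%), against 13.3% of the windows beside them and 15.2% of all regions: *Fos* +4.26, *Fosb* −6.43 and *Atf3* −48.8 kb. The windows beside all regions held it in 6.97%. At WT A summits it was in 4 other regions, *Junb* +2.65 and −0.602, *Atf3* −6.63 and *Batf* +26.1 kb. At WT G summits it was in 4, the 3 named and *Atf3* −21.8 kb. At *Fosb* −6.43 kb, the strongest region, the AGGTCA began 3 bases from the summit.

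AP-1 sites, TGACTCA or TGAGTCA, were in 1 of the 30 windows (3.33%), against 5.49% of all regions, and this was *Fosb* −11.3 kb. At WT A summits they were in none, and at WT G summits in 2, those of *Fosb* −11.3 and *Atf3* −21.8 kb. The CRE, TGACGTCA, was in none, against 0.292%, and at WT G summits in that of the *Jund* promoter. C/EBP sites, TTACNNAA or TTGCNNAA, were in 5 (16.7%), against 19.4%: *Fosb* −11.3, *Jun* +3.49, *Junb* +1.3, *Jund* −0.156 and *Atf3* −14.7 kb. The C/EBP count was 2 at WT A summits, for *Fos* +15.3 and *Jund* −0.156 kb, 5 at WT G summits and 2 at region midpoints. The PU.1 site, AAGGAAGTG or GAGGAAGTG, was in 1 (3.33%), against 3.3%, at *Atf3* −48.8 kb, where it lay on the summit beside the AGGTCA. These shares were not tested, and with 30 windows each match moves a share by 3.33%.

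The wider AP-1 pathway was counted by the same rule. Of 13 other leucine zipper genes, 4 had a region in both WT libraries: *Jdp2* with 2, *Creb1* with 3, *Nfe2l2* with 2 and *Bach2* with 1. *Jdp2*, a repressor that pairs with JUN and lies between *Fos* and *Batf*, was bound at −0.735 kb with 9.11 in WT A and 13.2 in WT G. Of 19 kinases upstream of AP-1, 4 had regions, *Mapk14* (p38α), *Map3k1* and *Map3k5* with 3 each and *Map3k8* (TPL2) with 5. Of 10 other immediate early genes, *Egr3*, *Ier3*, *Ier5* and *Nr4a1* had regions, and *Egr3* at −11.3 kb reached 24.6 and 14.5. Of 14 genes known as AP-1 targets, 6 had regions, namely *Plaur*, *Il1b*, *Il6*, *Ccl2*, *Cdkn1a* and *Spp1*, and the *Cdkn1a* region at −20.1 kb reached 23.3 and 26.4. KO A and KO G each had a peak nearest to *Map3k8* and to *Cdkn1a*, and none nearest to any other gene of these 4 lists. The shares, from 21.1% of the kinases to 42.9% of the targets, stand beside 8.85% of all protein-coding genes, and these lists were not tested.

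The genes most like *Fos* and *Fosb* in peak numbers were found by the sum over the 4 libraries of the absolute differences in log2(peaks + 1). For *Fos* these were *Irf2bp2* (9, 22, 0 and 0 peaks in WT A, WT G, KO A and KO G; sum 0.131), *Dusp1* (9, 18, 0 and 0; sum 0.144) and *Rasgef1b* (10, 22, 0 and 0; sum 0.269). *Dusp1*, which encodes a phosphatase that switches off the kinases acting on AP-1, had 9 regions in both WT libraries, and the other 2 had 7 each, as *Fos* did. For *Fosb* they were *Tbl1xr1*, with 9, 15, 1 and 0 peaks and a sum of 0.3, *Tex14*, with 7, 9, 1 and 0 and 0.7, and *Prkch*, with 10, 21, 1 and 0 and 0.896. By number alone, 45 genes had at least the 9 WT A peaks of *Fos* and *Fosb*, while in WT G 23 had at least the 20 of *Fos*, 36 at least the 17 of *Atf3* and 95 at least the 12 of *Fosb*.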

How the data were processed

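RXRα HT-ChIPmentation was done in AMs as 4 libraries, 2 for each genotype, with 1 input library whose own values were not analysed here. The authors trimmed reads, aligned them to mm10 with Bowtie2 and called peaks with MACS3 for each library against the input at a q threshold of 0.05, without pooling, per the study's methods and the submitters' processing notes. The deposited peak lists give the fold enrichment as a ratio, the −log10 p and −log10 q at the summit, the summit position, and a score, 10 times the −log10 q without its decimals. The lists hold no read counts, so the study's count model on a consensus of peaks could not be run, and genotypes were compared by peak number and overlap.

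Peaks were assigned with GENCODE M21 (basic set) with scipy 1.17.1, pandas 2.3.3, pysam 0.24.0, numpy 2.4.6 and matplotlib 3.10.9 under Python 3.11.15. A promoter covered the 1 kb before and the first 100 bp after a TSS of any gene, and a gene end the last 100 bp of a gene and the 1 kb beyond it. Features were read at the midpoint, in the order promoter, gene end, exon, intron, intergenic. An overlap of 1 bp made peaks shared. Fragments at summits were derived here: a whole number and a background level were solved from the fold enrichment, with its pseudocount of 1, and the Poisson −log10 p, within 0.004. This solved 4750 of 4751 peaks in WT A, whose pileup was scaled by 0.884, and every peak of the other lists. Genome-wide, the background stood at 1.25 fragments (WT A), 0.551 (WT G), 0.966 (KO A) and 0.936 (KO G), and lowest summits at 10, 5, 10 and 8 fragments, respectively. Intervals are 95% exact binomial (Clopper-Pearson) and cover counting error only; beside a count of 0, the share that 3 counts would make is given. The fragment and motif steps were tested on simulated data.

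The members, the gene lists and the rules for naming were chosen with earlier results of these data known. Named were the 9 members with all their regions in both WT libraries, the strongest single peaks, pathway genes with such a region, and the 3 genes nearest in peak numbers to the members with most regions. Alternatives were another reference point or annotation for the nearest gene, limits of distance, stricter q and overlap, equal list lengths, each library left out, and other motif windows.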

Additional observations from a re-analysis of the deposited data

How the results depend on the processing

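The results were recomputed under 20 alternatives, which gave 76 values. Of these, 17 counts of regions, genes or motifs and shares of peaks moved by over 1.5 times or out of their interval. A change of direction was scored only for the WT excess of peaks over KO, not for the counts and shares. The WT excess of 58.5 peaks, judged by its direction and test and so not among the 17, stayed positive throughout but not of the same size. It ranged from 41.5 to 75.5 with each library left out, and was 34.5 with the nearest TSS of any gene biotype and 99.5 with any peak within 100 kb of a member. With the letters A and G taken as pairs (replicate block) it was 58.5, exact p = 0.5, the smallest possible; the labels do not say that the letters pair the libraries.

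With TSSs of any biotype, 17 of the 30 regions stayed with 5 members (*Fos*, *Fosb*, *Fosl2*, *Junb* and *Jund*), and 13 went to genes not annotated as protein-coding, *Gm26802* among them. With an overlap of at least 50% of both peaks, 13 regions remained, and the shares of shared peaks fell to 31.0% of WT A and 17.1% of WT G member peaks. The WT G share was 56.5% at −log10 q of at least 5 and 61.2% with the WT G list shortened by −log10 q to as many peaks as WT A has. Regions with a KO peak numbered 0 with any biotype and at 50% overlap, and ranged from 0 to 1 with each library left out; without KO A there was none. DR1 was in 4 windows at up to 3 mismatches. AP-1 sites were in 2 with 100 bp on each side, and C/EBP sites in 2 at region midpoints. The summits of each WT library were tried after seeing the data: at WT A summits DR1 was in 1, AP-1 in 0 and C/EBP in 2 windows, and at WT G summits AP-1 was in 2. At 6 of the 30 regions KO A would hold, at the WT enrichment, fewer fragments than its lowest called summit, and 2 libraries a genotype cannot reach 0.05.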

Other observations

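Some regions near the AP-1 genes were nearest to another gene. Within 100 kb of *Fos* there were 4 more regions in both WT libraries, given to *Jdp2* and *Tmed10*, and within 100 kb of *Batf* also 4, given to *Jdp2* and *Flvcr2*. *Jund* had 3, given to *Gdf15*, *Gm3336* and *Iqcn*, *Atf3* had 3, all given to *Nenf*, *Fosb* had 1, given to *Vasp*, and *Fosl2* had 1, given to *Plb1*. No such region lay within 100 kb of *Jun*, *Junb* or *Fosl1*. Counted whichever gene was nearest, WT A had 15 peaks within 100 kb of the *Fos* TSS and WT G had 31, while KO A and KO G had none. For *Jund* the numbers were 7 and 18 with none in the KO libraries, against 2 and 3 peaks by the nearest TSS.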
